A study of Mus musculus with 4 samples.

Results

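The genes described here encode the subunits of voltage-gated sodium and calcium channels. Members were all genes of the deposited gene list whose symbol follows the pattern of the sodium channel alpha and beta subunits (Scn followed by a number and a or b), the calcium channel alpha1 subunits (Cacna1 and a letter), the alpha2delta subunits (Cacna2d), the beta subunits (Cacnb) and the gamma subunits (Cacng). This rule found 40 of 31053 genes, of which 10 encode sodium channel alpha subunits, 4 sodium channel beta subunits, 10 calcium channel alpha1 subunits, 4 alpha2delta subunits, 4 calcium channel beta subunits and 8 gamma subunits. The rule reads names alone, although it was set with earlier results of these data known. The cells came from the ventromedial prefrontal cortex (prelimbic and infralimbic areas) of male C57BL/6 mice, 8 weeks old when injected. All of these mice had received rAAV2-retro viruses carrying EGFP and a barcode, on one side of the brain, in the agranular insula, dorsomedial striatum, mediodorsal thalamus, basolateral amygdala and lateral hypothalamus. Such a virus enters axon ends, so barcode transcripts in a cell body are used as a mark of an axon in at least 1 target. There was no uninjected group. Unsorted cells of 3 mice gave 3 libraries, 1 per mouse, and EGFP-positive cells sorted from another 3 mice were pooled into 1 library. The authors' list gave 9368 excitatory neurons in 7 subtypes named for layer and a gene, with 357 L2/3-Calb1, 689 L2/3-Rorb, 382 L5-Bcl6, 321 L5-Htr2c, 1409 L5-S100b, 1118 L6-Npy and 5092 L6-Syt6 neurons. A further 1283 cells outside this list were called inhibitory neurons because they held at least 4 UMIs of Gad1 and Gad2, which encode the enzymes that make GABA, and at most 3 of Slc17a7, which encodes the vesicular glutamate transporter of cortical excitatory neurons.

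Sodium channel alpha subunits form a pore that opens within a millisecond of depolarization and carries the upstroke of the action potential, and the beta subunits change the gating and the placement of that pore. Calcium channel alpha1 subunits form the calcium pore and fall into the Cav1 or L-type class, which couples activity to gene expression and to calcium signals in dendrites, the Cav2 class, which triggers transmitter release at presynaptic terminals, and the Cav3 or T-type class, which opens at low voltage and shapes burst firing. Alpha2delta and calcium channel beta subunits bring alpha1 subunits to the membrane and tune them. Of the gamma subunits, most are known in neurons as transmembrane AMPA receptor regulatory proteins (TARPs) rather than as parts of calcium channels.

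The 40 genes lie on 12 chromosomes of GRCm38, the assembly of the authors' mm10 reference, and all of them are annotated as protein coding. None overlaps another counted gene on the same strand. A row of 5 sodium channel alpha genes lies on chromosome 2, Scn3a (65457118 to 65567627, minus strand), Scn2a (65620771 to 65767447, plus strand), Scn1a (66270778 to 66440840), Scn9a (66480080 to 66634962) and Scn7a (66673425 to 66784914), the last 3 on the minus strand. Cacng7, Cacng8 and Cacng6 are neighbours on chromosome 7 (3332955 to 3435667). RefSeq promoter windows on GRCm38.p6, each running from 250 bases before to 50 bases after a transcript start, matched 30 of the 40 genes with 41 windows. One window for each gene of 2 pairs is printed because, within each pair, one gene was higher in excitatory and the other in inhibitory neurons in the results that follow. The pairs, Scn8a with Scn1a and Cacna2d1 with Cacna2d2, were chosen after those values had been seen. Sequences run 5′ to 3′ on the gene's strand, and capitals mark the GC box GGGCGG or its reverse complement CCGCCC, or the CCAAT box.
Scn8a, chr15:100870395-100870694, plus strand: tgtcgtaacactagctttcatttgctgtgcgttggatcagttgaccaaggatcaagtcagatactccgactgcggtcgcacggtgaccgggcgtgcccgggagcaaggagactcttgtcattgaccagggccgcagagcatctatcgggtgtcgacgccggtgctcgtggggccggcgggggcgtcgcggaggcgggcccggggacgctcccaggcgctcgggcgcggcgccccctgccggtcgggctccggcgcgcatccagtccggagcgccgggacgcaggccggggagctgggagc
Scn1a, chr2:66440788-66441087, minus strand: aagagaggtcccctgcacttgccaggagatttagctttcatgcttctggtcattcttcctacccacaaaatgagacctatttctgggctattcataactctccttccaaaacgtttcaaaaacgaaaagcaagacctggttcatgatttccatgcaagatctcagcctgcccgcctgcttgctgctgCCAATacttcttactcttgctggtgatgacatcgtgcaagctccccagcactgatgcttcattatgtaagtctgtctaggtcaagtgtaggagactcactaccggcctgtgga
Cacna2d1, chr5:15934441-15934740, plus strand: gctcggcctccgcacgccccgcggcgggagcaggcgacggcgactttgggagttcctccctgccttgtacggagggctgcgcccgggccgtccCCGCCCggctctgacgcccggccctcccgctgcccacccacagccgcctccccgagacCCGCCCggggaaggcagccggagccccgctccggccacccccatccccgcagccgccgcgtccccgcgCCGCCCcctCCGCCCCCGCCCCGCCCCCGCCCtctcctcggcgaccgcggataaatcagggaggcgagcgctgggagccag
Cacna2d2, chr9:107399630-107399929, plus strand: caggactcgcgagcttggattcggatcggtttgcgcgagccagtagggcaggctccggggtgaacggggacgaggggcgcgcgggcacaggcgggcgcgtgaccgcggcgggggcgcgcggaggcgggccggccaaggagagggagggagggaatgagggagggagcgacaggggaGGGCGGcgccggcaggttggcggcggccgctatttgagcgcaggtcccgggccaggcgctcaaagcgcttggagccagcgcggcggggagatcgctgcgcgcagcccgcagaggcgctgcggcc
The Scn1a window held 5 CpG dinucleotides at 47.3% G and C and 1 CCAAT box, and the printed Scn8a window 38 CpG at 70.0% with none of the motifs searched. A second Scn8a window, on chromosome 15 from 100936021 to 100936320, held 12 CpG at 53.3% and none of the motifs either, and is not printed. The Cacna2d1 window held 42 CpG and 7 GC boxes, and the Cacna2d2 window 43 CpG and 1 GC box. On either strand, a GC box was present in 39.02% of the 41 windows and in 35.66% of all 32851 windows, a CCAAT box in 24.39% and 37.41%, the TATA box TATAAA in 4.88% and 13.62%, and the cAMP response element TGACGTCA in 0 of the 41 and in 1.79% of all. The median number of CpG was 9 over the 41 windows and 7 over all. A matched motif is a string of letters here and not a measured binding site.

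The libraries held 2075 to 8040 cell barcodes and 54749198 to 87841541 UMIs. Excitatory neurons of the unsorted libraries had median depths of 21344 to 23213 UMIs and inhibitory neurons 13277 to 14101. The sorted library stood apart, with 31669 UMIs per excitatory neuron at the median and 3.47% mitochondrial UMIs against 6.53% to 6.54%, and it held 5 inhibitory neurons, so comparisons with inhibitory neurons used the unsorted libraries. Between 5 and 30 cell barcodes were shared by any pair of libraries. Levels are given as CPM, the UMIs of a gene over all cells of a group in 1 library per 1000000 UMIs of that group. Reads come from the 3' ends of transcripts, so levels are compared between cell groups within a gene and not between genes. The 5 inhibitory markers summed to 2932 to 3100 CPM in inhibitory and 4.57 to 5.98 CPM in excitatory neurons, and the 4 excitatory markers to 16.3 to 22.2 and 1619 to 1639 CPM, with no marker at 0 in either group.

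The share of transcripts that came from these genes differed between excitatory and inhibitory neurons by less than the spread between libraries, while single members differed in both directions. The 40 genes summed to 3125 ± 58.6 CPM in excitatory and 3125 ± 139 CPM in inhibitory neurons (SD, n = 3 libraries each). Of 34 members with enough counts to test, 23 were called, which here means an adjusted p below 0.05 with a log2 fold change of 0.5 or more in size, against 40.4% of all 15266 genes tested. Inhibitory neurons were higher in 15 (20.6% of all genes) and excitatory neurons in 8 (19.7%). The median log2 fold change of the 34, excitatory over inhibitory, was -0.03, and that of all genes was 0.01. Scn4a, Scn10a, Scn11a, Cacna1f, Cacna1s and Cacng1 were not tested. Scn4a, the skeletal muscle sodium channel, had no UMI in any neuron, and the other 5 had at most 0.327 CPM in excitatory and 0.628 CPM in inhibitory neurons in any library.

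**Figure D1:**
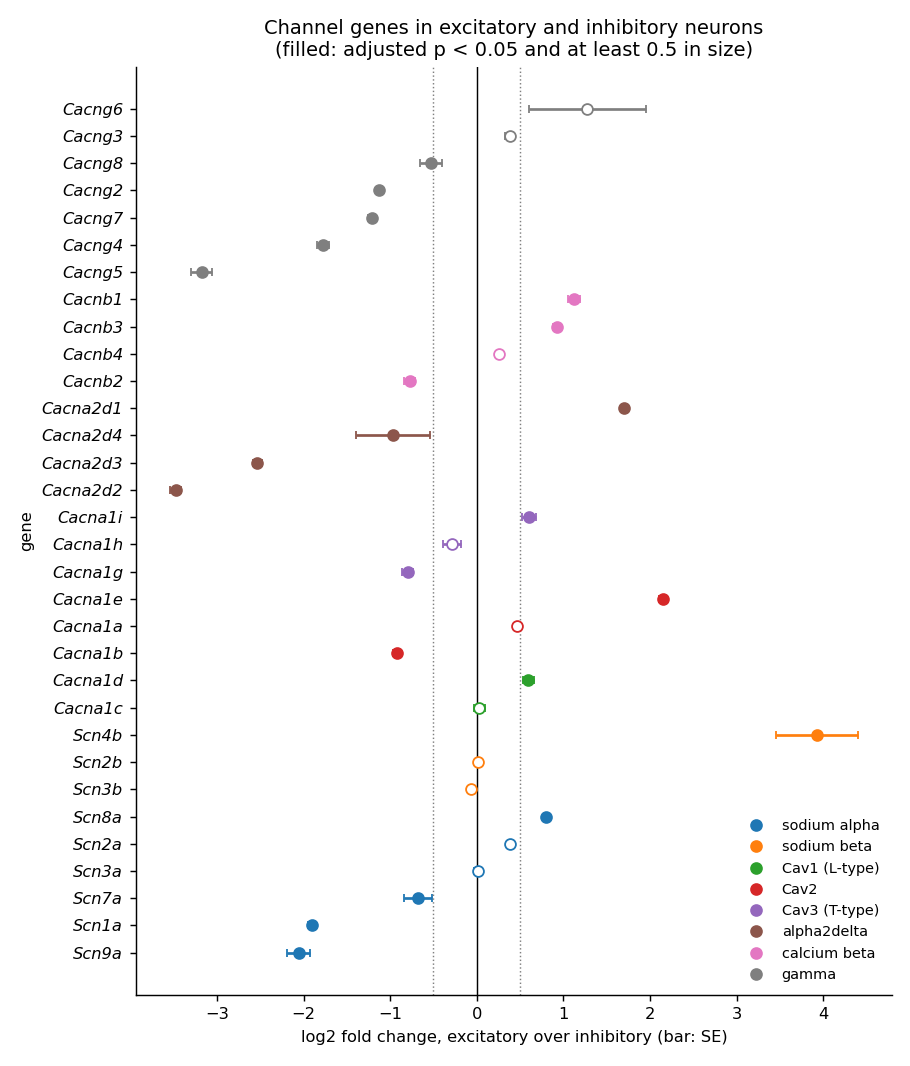
Log2 fold change between excitatory and inhibitory neurons for 32 of the 34 tested channel genes (x axis, bars are SE from edgeR, 3 unsorted libraries), grouped and coloured by subunit role (y axis, gene). Filled points passed the call and dotted lines mark 0.5 and -0.5. Of the alpha2delta genes, Cacna2d1 lies to the right and Cacna2d2, Cacna2d3 and Cacna2d4 to the left.

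Among the sodium channel pores, Scn1a was higher in inhibitory and Scn8a in excitatory neurons. Scn1a, whose loss in interneurons causes epilepsy in mice and humans, stood at 44.4, 42.6 and 43.6 CPM in excitatory neurons of unsorted replicates 1, 2 and 3 and at 182, 178 and 164 CPM in inhibitory neurons. The groups did not overlap, and the log2 fold change was -1.90 ± 0.04 (SE, edgeR's quasi-likelihood test, adjusted p = 3.16e-33). Scn8a, the main sodium pore of the mature axon initial segment and nodes, stood at 234, 231 and 220 CPM in excitatory and 145, 143 and 134 CPM in inhibitory neurons, a log2 fold change of 0.80 ± 0.03 (adjusted p = 2.23e-24). The ratio of Scn1a to Scn8a UMIs was 0.191 ± 0.0068 in excitatory and 1.24 ± 0.018 in inhibitory neurons (SD, n = 3), and it was under 0.59 in every subtype and library. Scn9a, best known from pain-sensing neurons, was at 3.39 to 3.58 CPM in excitatory and at 15.8, 16.6 and 14.4 CPM in inhibitory neurons (log2 -2.06 ± 0.13, adjusted p = 1.53e-17). Scn7a, a relative of these pores that is not opened by voltage in the usual way, was lower in excitatory neurons as a whole by a smaller step (log2 -0.68 ± 0.16), although L2/3-Rorb, at 49.1 ± 3.7 CPM, stood above the 8.31 ± 1.7 CPM of inhibitory neurons. Scn2a, the pore of the young axon initial segment, and Scn3a, which is high in the embryonic brain, were not called, at log2 0.38 ± 0.03 and 0.01 ± 0.04.

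Of the sodium channel beta subunits, Scn2b and Scn3b were not called, at log2 0.02 ± 0.03 and -0.07 ± 0.03. Scn4b, which supports resurgent sodium current, stood at 3.19, 2.96 and 3.05 CPM in excitatory neurons and at 0.628, 0 and 0 CPM in inhibitory neurons. The inhibitory value comes from 4 UMIs in 1 library, and the log2 fold change of 3.93 ± 0.48 (adjusted p = 1.77e-09) rests on them. Without unsorted replicate 1, which holds those UMIs, it was 9.59.

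In the calcium channel pores the largest step was that of Cacna1e, which encodes the R-type channel of the Cav2 class. It stood at 210, 214 and 208 CPM in excitatory and at 56.3, 48.6 and 47.5 CPM in inhibitory neurons, with no overlap (log2 2.15 ± 0.04, adjusted p = 8.43e-35). Cacna1b, the N-type channel of presynaptic terminals, went the other way, at 69.0, 64.8 and 64.6 CPM in excitatory and 152, 132 and 121 CPM in inhibitory neurons (log2 -0.93 ± 0.04, adjusted p = 1.08e-23). The ratio of Cacna1b to Cacna1e UMIs was 0.314 ± 0.013 in excitatory and 2.65 ± 0.089 in inhibitory neurons. Cacna1a, the P/Q-type channel, did not reach the size set for a call (log2 0.46 ± 0.04). Of the L-type genes, Cacna1d was called higher in excitatory neurons (log2 0.60 ± 0.07) and Cacna1c was not called (0.03 ± 0.07). The T-type genes were split, with Cacna1i higher in excitatory (0.60 ± 0.08), Cacna1g higher in inhibitory neurons (-0.80 ± 0.07) and Cacna1h not called (-0.29 ± 0.10). The Cacna1g call depended on the weight of L6-Syt6, at 4.71 ± 0.23 CPM, in the excitatory sum: L2/3-Rorb (59.4 ± 3.7 CPM) and L6-Npy (59.97 ± 4.9 CPM) stood above the 42.9 ± 2.6 CPM of inhibitory neurons, and with equal weight for each subtype the log2 fold change was -0.42 and not called.

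All 4 alpha2delta genes were called, 1 in one direction and 3 in the other. Cacna2d1, which binds gabapentin and is a receptor for thrombospondin, stood at 209, 203 and 201 CPM in excitatory and 65.9, 71.3 and 64.9 CPM in inhibitory neurons (log2 1.70 ± 0.04, adjusted p = 9.78e-33). Cacna2d2, whose loss gives the ducky mouse its ataxia and epilepsy, stood at 7.18, 6.42 and 6.42 CPM in excitatory and 86.1, 74.5 and 79.0 CPM in inhibitory neurons (log2 -3.48 ± 0.06, adjusted p = 2.89e-36). The ratio of Cacna2d2 to Cacna2d1 UMIs was 0.0326 ± 0.0015 in excitatory and 1.19 ± 0.13 in inhibitory neurons. Cacna2d3, also known from pain studies, stood at 16.9, 17.8 and 16.7 CPM against 106, 109 and 105 CPM (log2 -2.53 ± 0.05, adjusted p = 1.55e-34). Cacna2d4, which serves photoreceptors, was near the detection limit at 0.413 to 0.559 CPM in excitatory and 0.916 to 1.37 CPM in inhibitory neurons, and its adjusted p was 0.0442 at log2 -0.97 ± 0.43.

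Of the calcium channel beta subunits, Cacnb1 and Cacnb3 were higher in excitatory and Cacnb2 in inhibitory neurons, and Cacnb4 was not called (log2 0.26 ± 0.03). Cacnb1 stood at 52.4, 50.9 and 53.0 CPM in excitatory and 31.2, 21.5 and 24.3 CPM in inhibitory neurons (log2 1.12 ± 0.07, adjusted p = 2.66e-17). Cacnb3 followed at 0.93 ± 0.04 and Cacnb2 at -0.78 ± 0.06. None of the gamma genes was called higher in excitatory neurons, and Cacng5, Cacng4, Cacng7, Cacng2 and Cacng8 were called higher in inhibitory neurons. Cacng2, or stargazin, which anchors AMPA receptors at the synapse, stood at 82.4, 79.4 and 80.5 CPM in excitatory and 194, 189 and 188 CPM in inhibitory neurons (log2 -1.13 ± 0.03). Cacng7 stood at 45.03, 40.9 and 40.7 against 116, 96.5 and 103 CPM (log2 -1.21 ± 0.05), and Cacng4 at 11.8, 11.9 and 11.5 against 49.4, 42.9 and 37.1 CPM (log2 -1.78 ± 0.07). Cacng5 stood at 2.83, 2.45 and 2.70 against 24.6, 27.0 and 25.8 CPM (log2 -3.18 ± 0.12). Cacng3 and Cacng6, at 0.38 ± 0.05 and 1.28 ± 0.68, were not called.

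The inhibitory group also carried more transcripts of other cell types. The 3 markers of oligodendrocyte precursors (OPCs) summed to 18.5 to 22.6 CPM there and 1.87 to 2.32 CPM in excitatory neurons, against 4221 to 4387 CPM in OPCs themselves. The 4 oligodendrocyte markers summed to 78.8 to 132 CPM and 27.6 to 28.6 CPM, the 4 astrocyte markers to 47.8 to 55.7 CPM and 22.7 to 24.8 CPM, the 4 microglial markers to 40.8 to 121 CPM and 10.6 to 13.0 CPM, the 3 endothelial markers to 11.3 to 71.6 CPM and 3.89 to 4.24 CPM, and the 4 mural markers to 32.8 to 48.9 CPM and 15.0 to 16.2 CPM. Their part in the difference between neuron classes was not tested. Cacng4, the member highest in OPCs relative to neurons, stood at 43.1 ± 6.2 CPM in inhibitory neurons and 845 ± 25 CPM in OPCs. The summed excitatory group is mostly L6-Syt6 neurons. With equal weight for each of the 7 subtypes, the 13 members with a log2 fold change of 1 or more in size kept direction and call, and Cacng5 moved to -6.77. Over all members that weighting called 21 in place of 23, with 13 in place of 15 higher in inhibitory neurons. Cacna1d (log2 0.43) and Cacna1g were no longer called, Cacna2d4 was not tested, Cacng3 was called (0.57), and Scn7a moved from -0.68 to -3.15, a fitted value that includes a subtype with no UMI.

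Genes that work with these channels were split in the same comparison. Of 8 partners at the axon initial segment and of sodium channels, 2 were higher in excitatory and 3 in inhibitory neurons, where 19.7% and 20.6% of all genes were called. Fgf11 and Fgf13, intracellular fibroblast growth factor homologues that bind sodium channels, stood at 5.78 ± 0.27 and 86.1 ± 1.9 CPM in excitatory and 45.2 ± 1.9 and 192 ± 5.2 CPM in inhibitory neurons (log2 -2.86 ± 0.08 and -1.05 ± 0.03). Fgf12 was also higher in inhibitory neurons, and Fgf14 and Nrcam in excitatory neurons. Ank3, which encodes the ankyrin that holds the initial segment together, was not called (log2 -0.23 ± 0.03). Of 12 calcium channel partners, 11 were tested, and 4 were higher in each class, against the same shares of all genes. Cachd1, an alpha2delta-like protein, stood at 0.594 ± 0.031 CPM in excitatory and 8.79 ± 0.70 CPM in inhibitory neurons (log2 -3.78 ± 0.22). Stac and the small GTPase genes Gem and Rrad, all under 4 CPM on average, were also higher in inhibitory neurons (log2 -3.51 ± 0.38, -2.81 ± 0.38 and -1.04 ± 0.32), and Stac3 was higher in excitatory neurons (1.20 ± 0.14). Of 5 genes of the sodium leak channel complex, 4 were tested, and Unc80 and Fam155a were higher in excitatory neurons while Nalcn, the pore, was not called (log2 -0.12 ± 0.04).

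The 7 excitatory subtypes each used a different mix of these genes. Each subtype was tested against the mean of the other 6, with 32 members tested. The subtypes were made by the authors from the expression of these same cells, so a p-value between them says only that a difference repeats over the libraries. L5-Htr2c had 17 called members (28.2% of all 12850 genes), with 7 higher (13.5%) and 10 lower (14.7%). L2/3-Calb1 had 13 (21.6%), 8 higher (12.0%) and 5 lower (9.64%), of which the lower count was 3 without unsorted replicate 3. L5-Bcl6 had 13 (18.8%), 11 higher (9.25%) and 2 lower (9.52%). L6-Npy had 13 (17.8%), 4 higher (10.3%) and 9 lower (7.53%). L6-Syt6 had 13 (25.6%), 2 higher (14.6%) and 11 lower (11.1%). L2/3-Rorb had 10 (18.5%), all higher (12.0% of all genes) and none lower (6.50%). L5-S100b had 9 (17.0%), 8 higher (11.1%) and 1 lower (5.92%), a lower count that was 2 without unsorted replicate 1 and 0 without unsorted replicate 3. Scn2a, Scn3a, Scn3b, Cacna1d and Cacnb2 were called in no subtype. Cacna2d3 was called in all 7. Of the tested members, 5, namely Scn4b, Scn7a, Cacna2d3, Cacng5 and Cacng6, had 3 or fewer UMIs in at least 1 subtype, which makes their fitted fold changes large and uncertain, so their levels are given, and a fitted fold only where a left-out library ended a call. Without them the called members numbered 11, 6, 10, 13, 6, 10 and 10 of 27, for L2/3-Calb1, L2/3-Rorb, L5-Bcl6, L5-Htr2c, L5-S100b, L6-Npy and L6-Syt6 in that order.

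**Figure D2:**
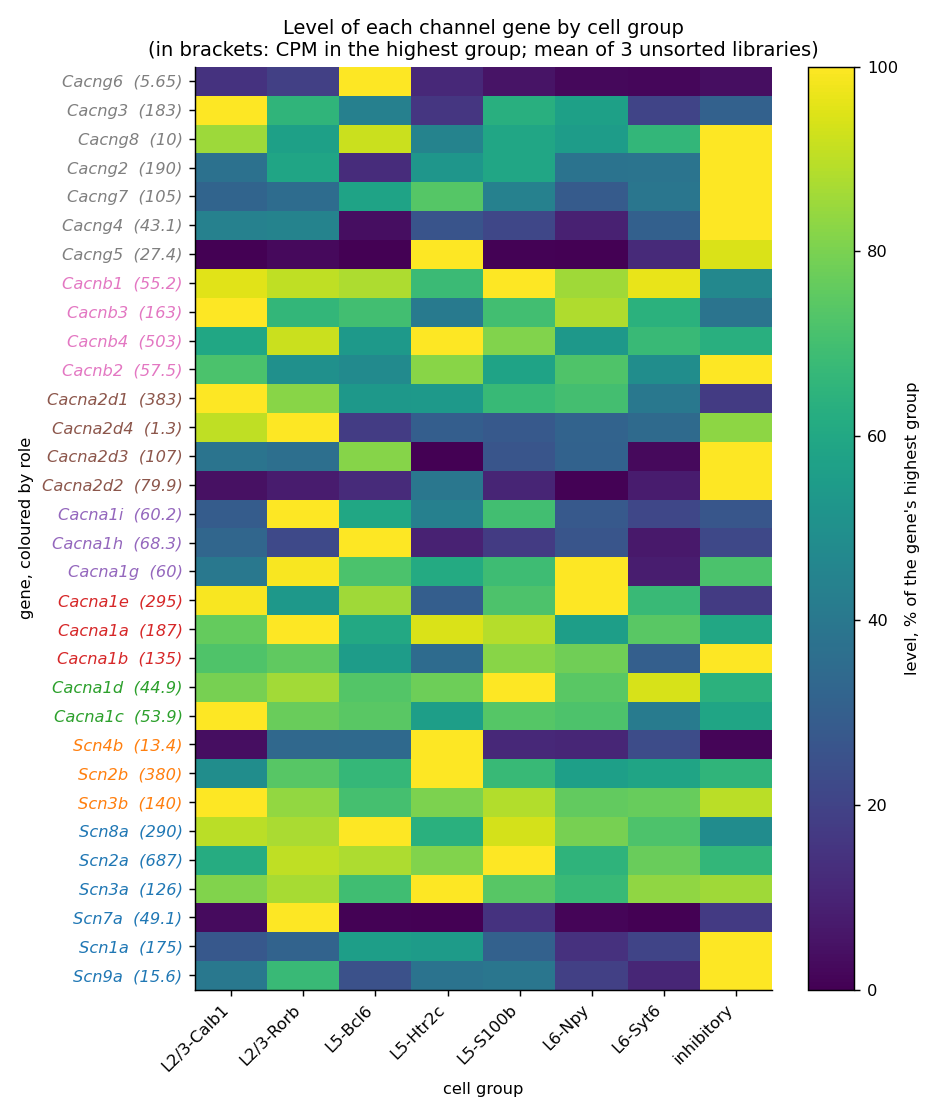
Level of 32 of the 34 tested channel genes (rows, coloured by subunit role, with the CPM of the highest group in brackets) in the 7 excitatory subtypes and in inhibitory neurons (columns), as a percentage of the gene's highest group, mean of 3 unsorted libraries. Scn7a is bright in L2/3-Rorb, Cacna1h and Cacng6 in L5-Bcl6, and Cacng5 in L5-Htr2c and inhibitory neurons.

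Of the sodium channel pores, Scn7a, Scn9a and Scn1a differed most in level between their highest and lowest subtypes among those tested. Scn7a stood at 53.3, 47.8 and 46.2 CPM in L2/3-Rorb and at 6.78, 5.36 and 9.39 CPM in L5-S100b, and in no library above 2.57 CPM in the other 5 subtypes. L5-Htr2c had 0 UMIs of Scn7a among 4683853, which allows up to 0.641 CPM (3 counts over the 3 libraries, counting error only), so the L2/3-Rorb level was at least 76.7-fold higher. The lower call in L5-Htr2c (fitted log2 -6.86) was lost without unsorted replicate 1 (-5.97) and after thinning. Scn9a stood at 10.1, 11.8 and 9.82 CPM in L2/3-Rorb (log2 1.36 ± 0.17), above every library of the other subtypes, and at 1.85, 1.53 and 1.66 CPM in L6-Syt6 (-1.61 ± 0.15). Scn1a stood at 100.4, 99.1 and 93.3 CPM in L5-Bcl6 and 85.6, 97.7 and 104 CPM in L5-Htr2c, which overlapped each other, and at 24.6, 28.1 and 21.2 CPM in L6-Npy, the lowest subtype. The log2 fold changes against the other subtypes were 1.05 ± 0.07, 0.91 ± 0.08 and -1.27 ± 0.07. Scn1a in every subtype and library stayed below the 164 to 182 CPM of inhibitory neurons. Scn8a was lowest in L5-Htr2c (184 ± 9.0 CPM, log2 -0.52 ± 0.05) and highest in L5-Bcl6 (290 ± 15 CPM). Scn11a, too low to test, had its 2 highest library values in L5-Htr2c, 1.40 and 1.30 CPM, with 0 in the remaining library. It had 7 UMIs in all over the unsorted excitatory neurons, so these values rest on very few reads. Among the beta subunits, Scn4b stood at 14.6, 13.3 and 12.4 CPM in L5-Htr2c, above all libraries of the other subtypes, and at 0.514, 0 and 0.968 CPM in L2/3-Calb1. In L5-S100b it stood at 1.92, 1.48 and 1.23 CPM, and that lower call (log2 -0.88) was lost without unsorted replicate 3 (-0.63) and after thinning. Scn2b was also highest in L5-Htr2c (380 ± 19 CPM, log2 0.62 ± 0.04) and lowest in L2/3-Calb1 (187 ± 15 CPM, log2 -0.55 ± 0.04).

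The T-type calcium channel genes differed sharply. Cacna1g stood at 4.83, 4.86 and 4.45 CPM in L6-Syt6 and at 21.3 CPM or more in every library of the other 6 subtypes. The groups did not overlap, and the log2 fold change was -3.07 ± 0.07 (adjusted p = 1.21e-49). The highest levels were in L6-Npy, at 58.1, 65.5 and 56.3 CPM (log2 1.14 ± 0.06), and in L2/3-Rorb, at 63.0, 59.6 and 55.6 CPM, and these overlapped. Cacna1h stood at 67.9, 70.6 and 66.3 CPM in L5-Bcl6 and under 24.7 CPM in every library of the others (log2 2.61 ± 0.10), with 4.67 ± 0.20 CPM in L6-Syt6. Cacna1i was highest in L2/3-Rorb (60.2 ± 5.0 CPM) and lowest in L6-Syt6 (12.9 ± 0.49 CPM). All 3 T-type genes were thus called lower in L6-Syt6. Of the Cav2 genes, Cacna1e stood at 298, 296 and 292 CPM in L6-Npy and 287, 297 and 292 CPM in L2/3-Calb1, which did not differ beyond their spread, and at 82.7, 95.6 and 88.1 CPM in L5-Htr2c (log2 -1.45 ± 0.06 against the other 6). Cacna1b was lowest in L6-Syt6 (41.0 ± 1.1 CPM) and L5-Htr2c (47.3 ± 8.9 CPM). The L-type gene Cacna1c was highest in L2/3-Calb1 (53.9 ± 7.2 CPM) and lowest in L6-Syt6 (22.4 ± 0.63 CPM).

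**Figure D3:**
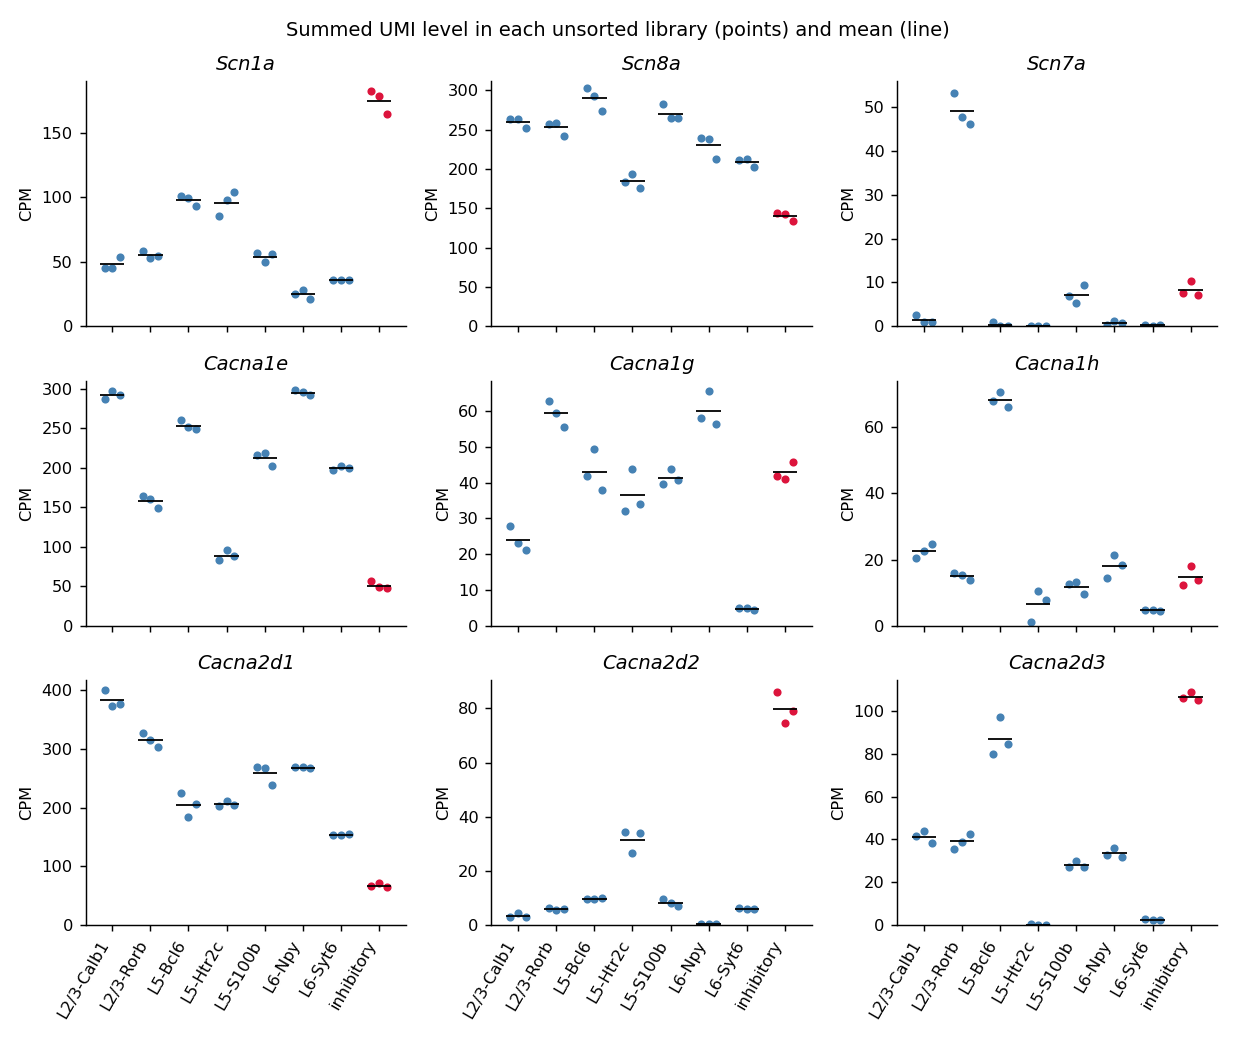
Level (CPM, y axis) of 9 channel genes in the 7 excitatory subtypes and in inhibitory neurons (x axis). Each point is 1 of the 3 unsorted libraries, blue for excitatory and red for inhibitory, and the line is their mean. The points of Cacna1g in L6-Syt6 lie between 4.45 and 4.86 CPM, below all others.

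The alpha2delta genes marked several subtypes. Cacna2d3 stood at 79.9, 97.0 and 84.3 CPM in L5-Bcl6, at 27.2 to 43.8 CPM in the libraries of L2/3-Calb1, L2/3-Rorb, L5-S100b and L6-Npy, at 2.81, 2.66 and 2.54 CPM in L6-Syt6, and at 0.582, 0 and 0 CPM in L5-Htr2c. The 1 UMI in L5-Htr2c corresponds to 0.214 CPM over the 3 libraries, with an exact 95% Poisson interval of 0.00541 to 1.19 CPM. In L2/3-Calb1 it stood at 41.7, 43.8 and 38.2 CPM, in L5-S100b at 27.2, 29.9 and 27.4 CPM and in L6-Npy at 32.9, 35.8 and 32.01 CPM, and all of these subtypes were called higher than the mean of the other 6, which includes L5-Htr2c and L6-Syt6. The lower call in L6-Syt6 (log2 -2.63) was lost without unsorted replicate 1 (-2.07). Cacna2d2 went the other way at its extremes, with 34.4, 26.5 and 33.9 CPM in L5-Htr2c (log2 2.89 ± 0.17) and 0.517, 0.369 and 0.342 CPM in L6-Npy (log2 -4.27 ± 0.30). In L2/3-Calb1 Cacna2d2 stood at 3.09, 4.43 and 2.90 CPM (log2 -0.80 ± 0.30, adjusted p = 0.026), and this call was lost without unsorted replicate 1 (-0.65) or 3 (-0.71), with DESeq2 (-0.78) and after thinning (-0.60). Cacna2d1 was highest in L2/3-Calb1 (383 ± 15 CPM) and lowest in L6-Syt6 (154 ± 0.89 CPM). Of the beta subunits, Cacnb3 was highest in L2/3-Calb1 (163 ± 14 CPM) and lowest in L5-Htr2c (66.5 ± 4.6 CPM), and Cacnb4 was highest in L5-Htr2c (503 ± 21 CPM, log2 0.51 ± 0.04).

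Among the gamma genes, Cacng3, which encodes a TARP of the forebrain, stood at 167, 205 and 177 CPM in L2/3-Calb1 (log2 1.31 ± 0.06) and was lowest in L5-Htr2c (29.1 ± 2.1 CPM) and L6-Syt6 (37.6 ± 2.4 CPM). Cacng2 stood at 27.1, 26.8 and 18.03 CPM in L5-Bcl6 (log2 -1.85 ± 0.09) and above 67 CPM in every library of the other subtypes. Cacng4 was also lowest in L5-Bcl6, at 0.686, 2.55 and 1.80 CPM (log2 -2.77 ± 0.30), while L6-Syt6 stood at 14.0, 12.9 and 12.6 CPM (log2 0.82 ± 0.09). Cacng6 was read mainly in L5-Bcl6, at 8.23, 4.68 and 4.06 CPM, and stood at 0.172, 0 and 0.171 CPM in L6-Npy, where the lower call (log2 -2.40) was lost without unsorted replicate 2 (-1.94) or 3 (-2.56). Cacng5 stood at 29.1, 25.1 and 28.1 CPM in L5-Htr2c and 3.43, 3.02 and 3.33 CPM in L6-Syt6. It had 0 UMIs in L2/3-Calb1, L5-Bcl6 and L6-Npy, which allows up to 0.496, 0.401 and 0.176 CPM, so the L5-Htr2c level was at least 55.3-fold, 68.4-fold and 156-fold higher. In L2/3-Rorb Cacng5 was called higher at 0.900, 0.824 and 0.446 CPM, and the call (log2 1.95) was lost in 5 of 9 alternatives, namely without unsorted replicate 1 (1.73) or 2 (1.78), with DESeq2 (0.98), after thinning (0.84) and with the sorted library added (1.59). The L5-Htr2c level overlapped that of inhibitory neurons, and the inhibitory markers summed to 1.40 to 36.5 CPM over the libraries of L5-Htr2c and to 10.1 to 30.2 CPM over those of L2/3-Rorb, against 2932 CPM or more in inhibitory neurons. L5-Htr2c also carried more astrocyte marker transcripts, 91.4 to 121 CPM, than the other subtypes, which held at most 29.5 CPM, while astrocytes themselves held 11617 CPM or more. The part of such transcripts in the L5-Htr2c values was not tested.

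Outside neurons most of these genes stood below their excitatory level in each cell type, and in most types some stood above it. Cells were gated by summed marker UMIs as microglia (2988 cells of the unsorted libraries), oligodendrocytes (1857), OPCs (941), astrocytes (465), endothelial (1320) and mural cells (602), and these levels are given without a test. Free transcripts of broken neurons can give a low level of neuronal genes in every cell, and the 22 members at 20 CPM or more in excitatory neurons stood at a median of 0.0429 times their excitatory level in microglia, 0.0454 in astrocytes and 0.0485 in endothelial cells. The median was 0.0730 times in mural cells, 0.109 in oligodendrocytes and 0.252 in OPCs. Among all members with over 3 UMIs in a gated type, 11 stood above their excitatory level in OPCs and 5 in astrocytes. The number was 4 in mural cells, 3 in oligodendrocytes, 2 in microglia and 0 in endothelial cells. Cacng4 stood at 874, 834 and 827 CPM in OPCs and at 23 CPM or less in each library of the other 5 gated types. Scn3a stood at 145 ± 3.1 CPM in OPCs, above the 102 ± 1.6 CPM of excitatory neurons, and Cacng7 at 130 ± 4.1 CPM. In mural cells, the contractile cells of vessels, the L-type gene Cacna1c stood at 92.8, 78.2 and 64.6 CPM and the T-type gene Cacna1h at 32.6, 49.1 and 73.3 CPM, each above the levels of both neuron classes. Cacna2d1 stood at 84.3 ± 22 CPM in mural cells, and Scn4b at 12.4 CPM. Cacna2d2 stood at 50.0 ± 11 CPM in astrocytes and 50.3 ± 4.2 CPM in OPCs, above the 6.67 ± 0.44 CPM of excitatory neurons. Scn2a stood at 10.2 ± 2.0 CPM in microglia, and Cacnb4 at 118 ± 8.5 CPM in oligodendrocytes. Cacna1s, the skeletal muscle L-type channel, was read mainly in microglia, at 6.06, 6.44 and 7.68 CPM from 85 UMIs.

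**Figure D4:**
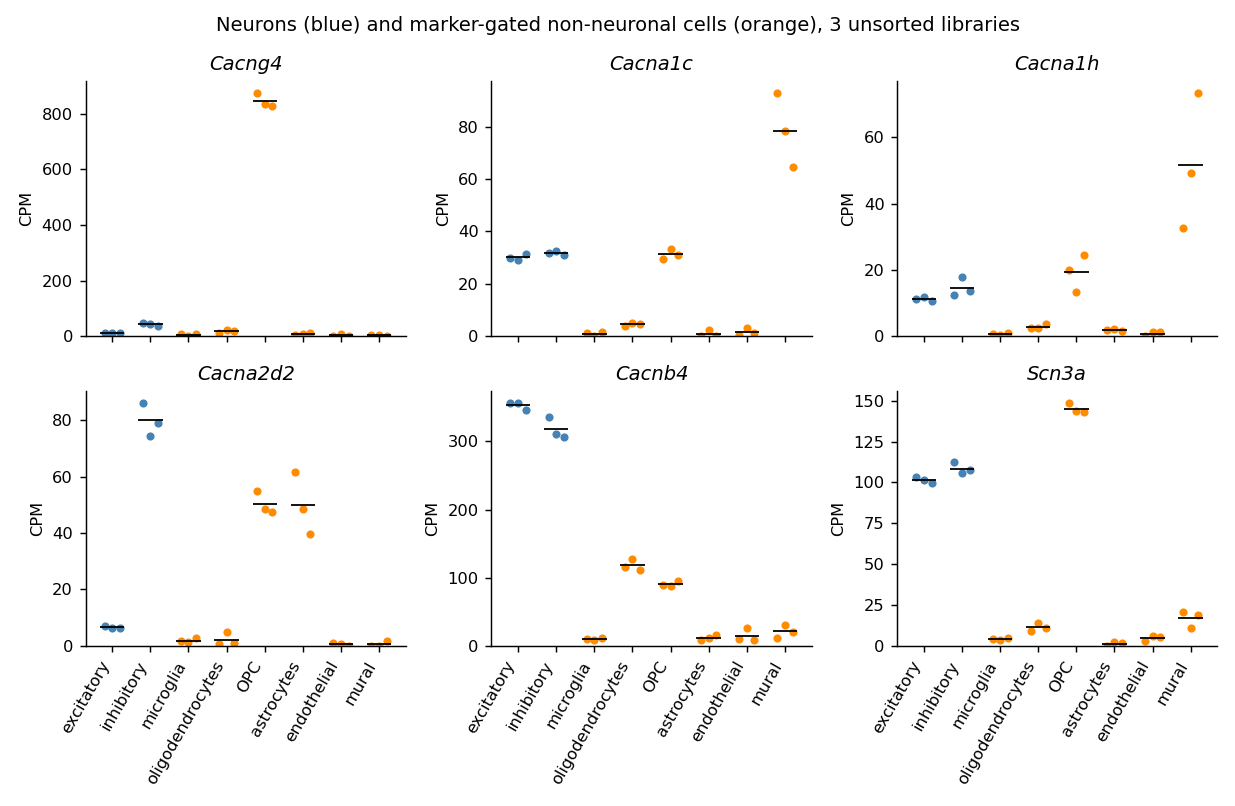
Level (CPM, y axis) of 6 channel genes in excitatory and inhibitory neurons (blue) and in 6 gated non-neuronal cell types (orange, x axis). Each point is 1 of 3 unsorted libraries and lines are means. Cacng4 reaches 827 to 874 CPM in OPCs and stays under 50 CPM in all other groups.

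Neurons were then compared by viral barcode within a subtype, which in the unsorted libraries asks whether neurons labelled from the injected targets differ from their unlabelled neighbours. Barcode-high neurons had at least 5 barcode UMIs and barcode-zero neurons none. The gene expression matrices used here hold 1 barcode feature, taken as the sum over the 5 viruses, so targets cannot be told apart from them. The paper states that barcode count matrices are also available, and these were not analysed here. All 4 libraries entered, and the 4 subtypes with at least 10 cells of each kind in every library were tested. A barcode-zero neuron can also be a labelled one whose barcode was missed, and free barcode transcripts can enter any droplet. In the sorted library all cells had been sorted as EGFP-positive. Its barcode-zero neurons, 24 in L5-S100b and 94 in L6-Syt6, are thus sorted cells without a barcode read and not unlabelled neighbours by design. In the unsorted libraries, 37.8% to 39.9% of excitatory neurons were barcode-high, against 0% to 1.58% of inhibitory neurons, at most 1.13% of oligodendrocytes, 0.357% of OPCs and 0.188% of microglia, and none of the gated astrocytes, endothelial or mural cells. At least 1 barcode UMI was found in 56.7% to 60.7% of excitatory neurons, in 2.87% to 6.998% of inhibitory neurons and in 0.719% to 5.49% of the gated non-neuronal cells, whose median depths of 2386 to 4941 UMIs were below those of both neuron classes. In the sorted library the share was 87.6% of excitatory neurons, 20.7% of 58 gated microglia and 6.67% of 15 gated oligodendrocytes. There 0% of these gated cells were barcode-high. In L2/3-Rorb none of 27 members tested was called (0.139% of all genes), with 1 at an unadjusted p under 0.05, and DESeq2 called 0. In L6-Npy none of 25 was called (0.801%), with 4 at an unadjusted p under 0.05, and DESeq2 called 0. In L5-S100b 3 of 29 were called (2.70%), all lower in barcode-high neurons (1.60%). In L6-Syt6 1 of 30 was called (1.67%), lower in barcode-high neurons (0.867%).

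In L5-S100b, Scn7a stood at 14.8, 13.0, 19.3 and 12.5 CPM in barcode-zero neurons and at 4.81, 3.59, 7.22 and 5.24 CPM in barcode-high neurons, in unsorted replicates 1, 2 and 3 and the sorted library in turn. It was lower in 4 of 4 libraries without overlap, with a log2 fold change of -1.49 ± 0.25 (edgeR, adjusted p = 0.000113). Cacng4 stood at 15.6, 17.3, 8.70 and 41.7 CPM in barcode-zero and 8.06, 9.57, 6.52 and 13.9 CPM in barcode-high neurons, lower in 4 of 4 libraries although the groups overlapped (log2 -1.03 ± 0.22, adjusted p = 0.00215). Without the sorted library its log2 fold change was -0.76 and the call was lost. Cacna1h stood at 23.9, 21.6, 9.67 and 23.6 CPM and at 9.75, 12.3, 9.21 and 16.8 CPM, lower in 4 of 4 libraries although the groups overlapped (log2 -0.71 ± 0.21, adjusted p = 0.0343), and the call was lost without unsorted replicate 1 (-0.47) or 2 (-0.68). The 195 barcode-zero neurons had median depths of 19306.5 to 28185 UMIs by library, below the 25553.5 to 34389 of the 958 barcode-high neurons, and they held 76 UMIs of Cacna1h, 74 of Cacng4 and 59 of Scn7a in all. Some genes that name or mark subtypes and layers were also called in the same neurons and others were not. Cux2, an upper-layer gene, stood at 28.8, 3.24, 11.6 and 4.17 CPM in barcode-zero and 1.64 to 3.96 CPM in barcode-high L5-S100b neurons (log2 -2.19 ± 0.33), Calb1 was lower in barcode-high neurons (-1.01 ± 0.28), and S100b, for which the subtype is named, was higher (1.16 ± 0.18). Rorb (-0.05 ± 0.11, lower in 2 of 4 libraries) and Syt6 (-0.67 ± 0.46) were not called, nor was the layer 5 gene Etv1 at 0.48 ± 0.08, under the size set for a call. Scn7a and Cacng4 were themselves higher in L2/3-Rorb than in L5-S100b, and Cacna1h in L5-Bcl6. The part of depth and of such genes in the result was not tested. After each neuron was thinned to 5000 UMIs, none of the 3 members had enough counts to test. Without the library block, or with DESeq2, the Scn7a call was kept and those of Cacng4 and Cacna1h were lost. With neurons labelled from 1 barcode UMI, the Cacna1h call was lost and those of Scn7a and Cacng4 were kept.

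In L6-Syt6, Cacna2d2 stood at 6.94, 6.88, 6.29 and 7.06 CPM in barcode-zero and 5.25, 3.78, 4.58 and 5.06 CPM in barcode-high neurons, lower in 4 of 4 libraries without overlap (log2 -0.51 ± 0.13, adjusted p = 0.0449). The call was lost when unsorted replicate 1, 2 or 3 was left out, at log2 -0.57, -0.39 and -0.54. It was also lost with DESeq2, without the library block, after thinning and with neurons labelled from 1 barcode UMI. That made 7 of 10 alternatives, over which the log2 fold change ranged from -0.57 to -0.23. Etv1 was also lower in barcode-high L6-Syt6 neurons (-0.52 ± 0.06) and Rorb higher (0.65 ± 0.16), while Syt6 was not called (0.08 ± 0.05). The median depth was 21684 to 30096.5 UMIs by library in barcode-zero and 24582 to 38604 UMIs in barcode-high L6-Syt6 neurons, and the part of these in the result was not tested. Differences of the barcode effect between subtypes were tested for all 6 pairs. For L2/3-Rorb against L5-S100b 1 member was called (0.636% of all genes) and for L5-S100b against L6-Syt6 3 (3.33%). None was called for L2/3-Rorb against L6-Npy (0.0829%), L2/3-Rorb against L6-Syt6 (0.718%), L5-S100b against L6-Npy (0.981%) or L6-Npy against L6-Syt6 (1.28%).

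**Figure D5:**
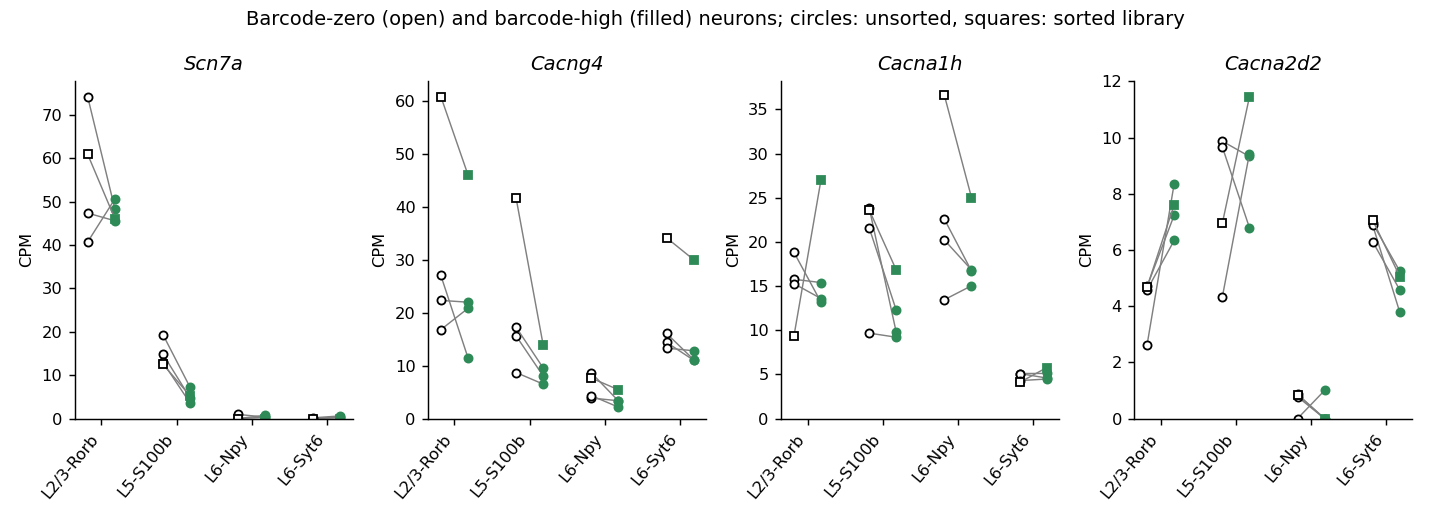
Level (CPM, y axis) of 4 channel genes in barcode-zero (open) and barcode-high (filled) neurons of 4 subtypes (x axis), with a line joining the pair from each library, circles for the 3 unsorted libraries and squares for the sorted library. Scn7a falls in all 4 libraries of L5-S100b, and the sorted library has the highest Cacng4 values in L2/3-Rorb, L5-S100b and L6-Syt6.

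The sorted library gave a further set of values, without a replicate. In its excitatory neurons, 28 of the 34 members lay above the range of the 3 unsorted libraries, against 50.9% of all genes, and 2 lay below, against 33.4%. The median ratio of the sorted to the mean unsorted level was 1.26 for the members and 1.06 for all genes tested. Scn8a stood at 361 CPM in sorted and 220 to 234 CPM in unsorted excitatory neurons, Cacna1b at 105 and 64.6 to 69.0 CPM, and Cacng4 at 24.2 and 11.5 to 11.9 CPM. The depth and mitochondrial share of these cells differed from the unsorted ones, as given above, and their part in these values cannot be told apart from that of the sort. The order of subtypes was alike for the genes with sharp patterns, with Scn7a at 48.8 CPM in L2/3-Rorb, Cacna1h at 87.9 CPM in L5-Bcl6, Cacna2d3 at 99.7 CPM in L5-Bcl6 and Cacna1g at 7.75 CPM in L6-Syt6, each the highest, or for Cacna1g the lowest, of the 6 subtypes with at least 40 sorted cells.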

How the data were processed

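Single-cell RNA-seq libraries (10x Chromium 3' v3) of 3 unsorted mice and 1 EGFP-sorted pool were aligned by the authors with Cell Ranger 3.0.2 to mm10 with the viral barcodes added, and the deposited matrices hold raw UMI counts per gene and cell, with no normalization. The deposited metadata give subtype and total UMI count for the excitatory neurons the authors kept after removing low-quality clusters. Groups came from the sample titles. Cells outside that list entered with 500 to 8000 detected genes, 1000 to 60000 UMIs and a mitochondrial share below 20%. These upper limits are those of the authors against doublets, and no doublet caller was run here. Gated non-neuronal cells needed at least 5 UMIs of a class's markers and at least 4 times those of the next class. The viral feature, 0.0319% to 0.0384% of UMIs, entered no test and no library size.

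Sums of counts over the cells of a group in each library were tested across all genes with edgeR 4.0.16 (quasi-likelihood test, TMM, filterByExpr) in R 4.3.3, with the library as a block, since both groups of a comparison come from the same mouse or pool. Each library pairs its own cell groups, and p-values were adjusted by Benjamini-Hochberg. Unsorted libraries are separate mice, and the sorted one is a pool of 3. CPM were computed from summed UMIs. The test between neuron classes and that of L5-Htr2c against the other subtypes were run on simulated counts, with changes placed only in genes with ample counts. The tests by barcode and between barcode effects were not simulated. Alternatives were DESeq2 1.42.0, RLE factors, no filter on low counts, no block, thinning each cell to 5000 UMIs, other group definitions and leaving out each library. Members, partner lists and tests were chosen with earlier results of these data known, and the tests between barcode effects, the counts without members of 3 or fewer UMIs and the printed promoters were added after the data were seen. Members called between neuron classes with a log2 fold change of 1 or more in size, up to 2 highest and 2 lowest called members per subtype and every member called by barcode were given values in each library. Intervals and limits cover counting error only. Authors' target assignments per neuron were not analysed here. Of the members, 2 enter the counts but are not reported by name here.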

Additional observations from a re-analysis of the deposited data

Results flagged for a closer look

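For 3 differences of the barcode effect between subtypes, the values given here passed the test of the difference itself (edgeR interaction term, adjusted over all genes within each of 6 pairs of subtypes). The effect on Scn7a in L2/3-Rorb minus that in L5-S100b was 1.24 on the log2 scale (adjusted p = 0.016). The effect on Scn7a in L5-S100b minus that in L6-Syt6 was -3.49 (adjusted p = 0.0214), with 12 UMIs in barcode-high and 3 in barcode-zero L6-Syt6 neurons, so this value depends on very few reads. Scn7a had too few counts to be tested within L6-Syt6 alone and entered this test through its counts in L5-S100b. The difference therefore cannot be read as an effect in L6-Syt6. The effect on Scn1a in L5-S100b minus that in L6-Syt6 was 0.50 (adjusted p = 0.00956). Scn1a did not reach the size set for a call within L5-S100b or L6-Syt6 alone. Left-out libraries moved these 3 values to 1.02 to 1.44, -5.06 to -2.84 and 0.45 to 0.59. The first call was lost without unsorted replicate 2 or 3, the second without unsorted replicate 1, 2 or 3, and the third without unsorted replicate 2 or 3 or the sorted library.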

How the results depend on the processing

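Between neuron classes and between subtypes, the number of called members stayed within 1.5 times its reported value under the alternatives run, except that thinning cells to equal depth gave 7 in place of 13 in L5-Bcl6, 6 of them among the 13. By direction, the 5 lower members of L2/3-Calb1 became 3 with DESeq2 or without unsorted replicate 3, the 11 higher members of L5-Bcl6 became 5 after thinning, and the 1 lower member of L5-S100b became 0 to 2. Counts by barcode were less stable. In L5-S100b 1 member in place of 3 was called with DESeq2 or without the library block, and leaving out a library gave 2 to 3. After thinning 1 was called there too, but it was none of those 3, which had too few counts to test. In L6-Syt6 the 1 call became 0 with DESeq2, without the library block, after thinning or with neurons labelled from 1 barcode UMI, and leaving out a library gave 0 to 1. Of 390 alternative values of members named in a contrast, 359 kept the call and 31 lost it, and none changed direction. In the added interaction tests no value changed direction, and all 4 calls were lost without the library block. Of the other counts, only those by barcode in L5-S100b and L6-Syt6, given above, changed by over 1.5 times without the block. Over these alternatives the log2 fold change between neuron classes ranged from 3.35 to 9.59 for Scn4b and from -6.77 to -3.03 for Cacng5, both low in one class, and from -1.95 to -1.67 for Scn1a. Depth limits the members under 1 CPM, where 3 counts in L5-Htr2c correspond to 0.641 CPM.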
